A study of Mus musculus with 8 samples.

Results

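The UDP-glucuronosyltransferases and the cytosolic sulfotransferases are described here in mouse livers that had lost the corepressor NCOR and in their controls. Members were the genes whose symbol starts with Ugt or Sult followed by a digit and that had a probe set (array row) assigned to that gene alone. There were 32 of them among 22180 genes, 11 Ugt and 21 Sult genes, each with 1 such probe set. No Ugt1 gene had a probe set of its own, so that family is not described gene by gene.

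Liver RNA was measured on 8 Affymetrix Mouse Gene 2.0 arrays, 1 per sample. The 4 NCOR KO samples came from NCOR floxed mice given an adeno-associated virus (AAV) with Cre recombinase, which cuts out the floxed part of the gene, and the 4 WT samples came from mice given AAV with GFP. All mice were 3 months old and on normal chow, and livers were taken 2 weeks after injection into a vein, at 5 pm (ZT10, counted in hours from lights on). The controls are called wild-type in the labels but floxed in the design text, so their allele is unclear, and Cre itself cannot be told apart from loss of NCOR. The promoter driving Cre is not given in the sources used here. The targeted gene was not analysed here, so the labels were not checked against it. The labels call the replicates biological but do not tie arrays to animals, so the p-values cover only the spread among these samples, which may be technical.

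Both enzyme families attach a water-soluble group to hormones, bilirubin, bile acids, drugs and dietary chemicals, so that bile and urine can carry them away. UDP-glucuronosyltransferases sit in the endoplasmic reticulum and take glucuronate from UDP-glucuronate. Sulfotransferases of the Sult group work in the cytosol and take sulfate from PAPS (phosphoadenosine phosphosulfate), which PAPS synthases make. In liver, several of these genes are controlled by nuclear receptors such as CAR, PXR and PPARα, and such receptors recruit NCOR as a corepressor. The comparison therefore asks whether the conjugating enzymes differ once NCOR is removed from liver.

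None of the 32 genes passed the test at a Benjamini-Hochberg adjusted p under 0.05 over all genes (limma), 0 higher and 0 lower. In all genes 1.65% passed, 181 higher and 185 lower. At an unadjusted p under 0.05 there were 4 of the 32, where all genes gave 15.9%. All 4 NCOR KO values lay above all 4 WT values in 2 of the 32, Ugt2b37 and Sult1d1, and 0 of the 32 lay wholly below. In all genes 10.4% were separated in one direction or the other. The 95% interval of the difference (for single genes, not widened for the number of genes) lay within 1.5-fold either way for 28 of the 32 (87.5%), against 95.5% of all genes. The 4 others were Ugt2b37, Ugt2b38, Sult1e1 and Sult1b1.

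The sequences of 3 Ugt2b genes are shown. Ugt2b37 had the largest difference of all 32 members, and Ugt2b38 and Ugt2b5 have the start regions most like its own. On mouse chromosome 5 the Ugt2 genes and some of the Sult1 genes lie side by side. They form a row of 13 protein-coding genes in the RefSeq table of assembly GRCm38.p6. Of these, 11 are members, in the order Ugt2b34, Ugt2b1, Ugt2b35, Ugt2b36, Ugt2b5, Ugt2b37, Ugt2a3, Ugt2b38, then Sult1b1, Sult1d1 and Sult1e1. Each sequence is the 250 bases before the annotated start on the minus strand, from RefSeq on GRCm38.p6. Capitals mark AGGTCA, the core motif that many nuclear receptors bind. The windows lie at chr5:87254789-87255038 for Ugt2b37, chr5:87424204-87424453 for Ugt2b38 and chr5:87140341-87140590 for Ugt2b5.
Ugt2b37: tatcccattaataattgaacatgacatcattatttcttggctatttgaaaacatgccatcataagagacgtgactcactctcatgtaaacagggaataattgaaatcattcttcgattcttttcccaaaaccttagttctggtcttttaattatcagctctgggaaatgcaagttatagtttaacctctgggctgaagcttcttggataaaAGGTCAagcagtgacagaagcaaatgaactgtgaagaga
Ugt2b38: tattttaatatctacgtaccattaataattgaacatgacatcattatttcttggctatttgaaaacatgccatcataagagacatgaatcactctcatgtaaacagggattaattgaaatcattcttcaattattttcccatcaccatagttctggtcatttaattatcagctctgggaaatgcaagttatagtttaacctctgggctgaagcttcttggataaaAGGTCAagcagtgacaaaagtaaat
Ugt2b5: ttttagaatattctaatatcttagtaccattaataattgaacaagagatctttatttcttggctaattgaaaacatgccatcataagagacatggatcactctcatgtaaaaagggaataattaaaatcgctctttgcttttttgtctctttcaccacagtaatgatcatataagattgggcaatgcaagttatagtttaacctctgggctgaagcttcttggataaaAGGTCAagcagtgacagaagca
Aligned end to end, the Ugt2b37 window was 84.9% identical to that of Ugt2b38 and 72.6% identical to that of Ugt2b5. The motif began 39 bases before the annotated start in Ugt2b37, 25 bases before it in Ugt2b38 and 22 bases before it in Ugt2b5. It sat in an unbroken run of 82 bases that Ugt2b37 shares with Ugt2b38, and of 68 bases that it shares with Ugt2b5.

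Over windows of 250 bases before to 50 after the start, 27 of the 32 members had an entry in the table of start-region sequences used here, with 30 windows. AGGTCA on either strand stood in 8 of the 30 windows (26.7%), against 16.3% of 32851 windows of all genes. The 8 genes were Ugt2b35, Ugt2b36, Ugt2b37, Ugt2b38, Ugt2b5, Sult1b1, Sult1e1 and Sult2a8. Ugt2b37, Ugt2b38 and Ugt2b5 hold the motif in runs they share, so these windows are not independent, and the shares were not tested. Direct repeats of AGGTCA spaced by 1 base or by 4 bases, which contain that motif, and the E-box CACGTG were each in 0 of the 30 windows. In all windows, both strands read, they stood in 0.0396%, 0.0152% and 7.15%. All 32 are in the RefSeq gene table, and those without an entry in the sequence table were Sult2a1, Sult2a2, Sult2a7, Sult4a1 and Ugt3a2.

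Levels are log2 probe-set intensities. The median gene lay at 5.88, and a probe set's brightness also depends on its own probes, so levels of different genes are not ranked against each other. Of the 11 Ugt genes 8 were at or above the median gene and 3 below it. Of the 21 Sult genes 6 were at or above it and 15 below. All 8 hepatocyte markers were above the median gene, from Serpina1b at 6.81 in NCOR KO and 6.85 in WT livers to Alb at 13.52 in NCOR KO and 13.52 in WT livers.

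**Figure D1:**
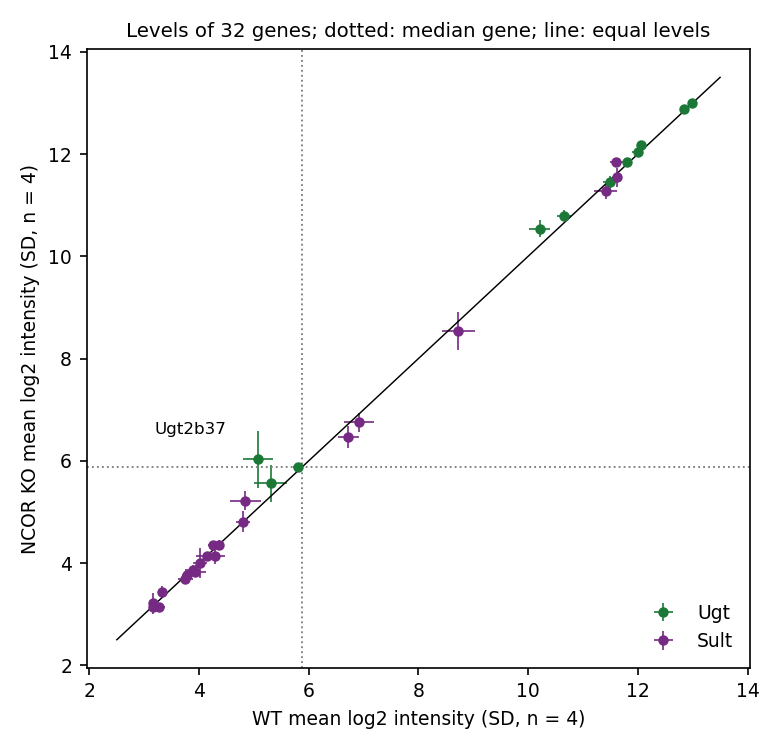
Mean log2 intensity of the 32 genes in NCOR KO livers (vertical axis) against WT livers (horizontal axis), with the SD of 4 arrays on each. Dotted lines mark the median gene at 5.88, and the points lie along the line of equal levels, with Ugt2b37 at 6.03 in NCOR KO and 5.08 in WT livers the farthest from it.

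The Ugt2b enzymes glucuronidate steroids, bile acids, phenols and many drugs. All 7 measured Ugt2b genes had a difference above 0, from 0.01 to 0.95 on the log2 scale, and 0 of 7 passed the test. Ugt2b1 averaged 12.99 ± 0.05 in NCOR KO and 12.98 ± 0.02 in WT livers (SD, n = 4). Its difference of 0.01 had a 95% interval from -0.11 to 0.12, so that a change in signal of more than 1.09-fold upward lay outside it. The highest value on any array was 13.70. Whether signal so near the top is compressed was not tested, so the interval limits the signal and not the transcript. Ugt2b36 (12.88 ± 0.04 in NCOR KO, 12.83 ± 0.06 in WT livers; SD, n = 4) and Ugt2b5 (12.044 ± 0.066 in NCOR KO, 11.999 ± 0.097 in WT livers; SD, n = 4) were likewise within the spread of their replicates. Ugt2b34 averaged 12.18 ± 0.06 in NCOR KO livers and 12.05 ± 0.07 in WT livers (SD, n = 4), a difference of 0.13 with a limma adjusted p of 0.347.

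Ugt2b37 had 5.79, 6.76, 5.44 and 6.11 in NCOR KO replicates 1 to 4, against 5.28, 5.28, 5.03 and 4.71 in WT replicates 1 to 4. Each NCOR KO value was above each WT value, and the NCOR KO livers were more spread out, with replicate 2 the highest. The difference was 0.95 ± 0.24 (SE), a 1.93-fold higher level with a 95% interval from 1.33-fold to 2.79-fold, at a limma adjusted p of 0.0862. The gene was dim, below the median gene in WT livers. With single arrays left out the difference ran from 0.70 to 1.14 and the adjusted p from 0.0519 to 0.182.

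Ugt2b38, whose start region is most like that of Ugt2b37, had 5.74, 5.98, 5.33 and 5.18 in NCOR KO livers, against 5.48, 5.63, 5.12 and 4.999 in WT livers. The groups overlapped, and the difference of 0.25 ± 0.19 (SE) had a limma adjusted p of 0.549. It ran from 0.11 (without NCOR KO replicate 2) to 0.38 (without NCOR KO replicate 4) with single arrays left out. Its 95% interval, from 0.894-fold to 1.58-fold, overlaps that of Ugt2b37, and the difference between the 2 genes was not tested. Ugt2b5, the third of them, was bright, with a 95% interval from 0.931-fold to 1.14-fold.

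Ugt2b35 had 10.77, 10.56, 10.42 and 10.41 in NCOR KO livers, against 10.49, 10.13, 10.17 and 10.06 in WT livers. Only WT replicate 1 reached into the NCOR KO range. The difference of 0.33 ± 0.11 (SE), 1.25-fold, had a limma adjusted p of 0.177. Ugt2a3, a relative outside the Ugt2b group, was the 1 Ugt gene with a difference below 0, at 11.44 ± 0.13 in NCOR KO and 11.49 ± 0.12 in WT livers (SD, n = 4). Because Ugt2b and Sult2a paralogs are close in sequence, RNA of one may bind the probes of another, and values of single genes in these groups are uncertain.

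The Ugt3 enzymes transfer other sugars: human UGT3A1 uses UDP-N-acetylglucosamine in place of UDP-glucuronate. Ugt3a1 had 10.73, 10.69, 10.86 and 10.91 in NCOR KO livers, against 10.76, 10.54, 10.77 and 10.54 in WT livers. Its groups overlapped, with a difference of 0.14 ± 0.08 (SE) and a limma adjusted p of 0.421. Ugt3a2 was at 11.83 ± 0.06 in NCOR KO and 11.81 ± 0.03 in WT livers (SD, n = 4). Ugt8a makes galactosylceramide, the lipid of myelin, and lay just under the median gene. It had 5.90, 5.91, 5.80 and 5.90 in NCOR KO livers, against 5.83, 5.77, 5.71 and 5.91 in WT livers, a difference of 0.07 (limma adjusted p = 0.622).

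Across the 11 Ugt genes 10 differences were above 0 and 1 below, with a median of 0.07, where the median of all genes was 0.01 and 52.0% of them were above 0. With arrays centred on their medians the Ugt median was 0.03 and that of all genes -0.04. Of these Ugt genes 8 lie next to each other, and genes are not independent replicates.

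**Figure D2:**
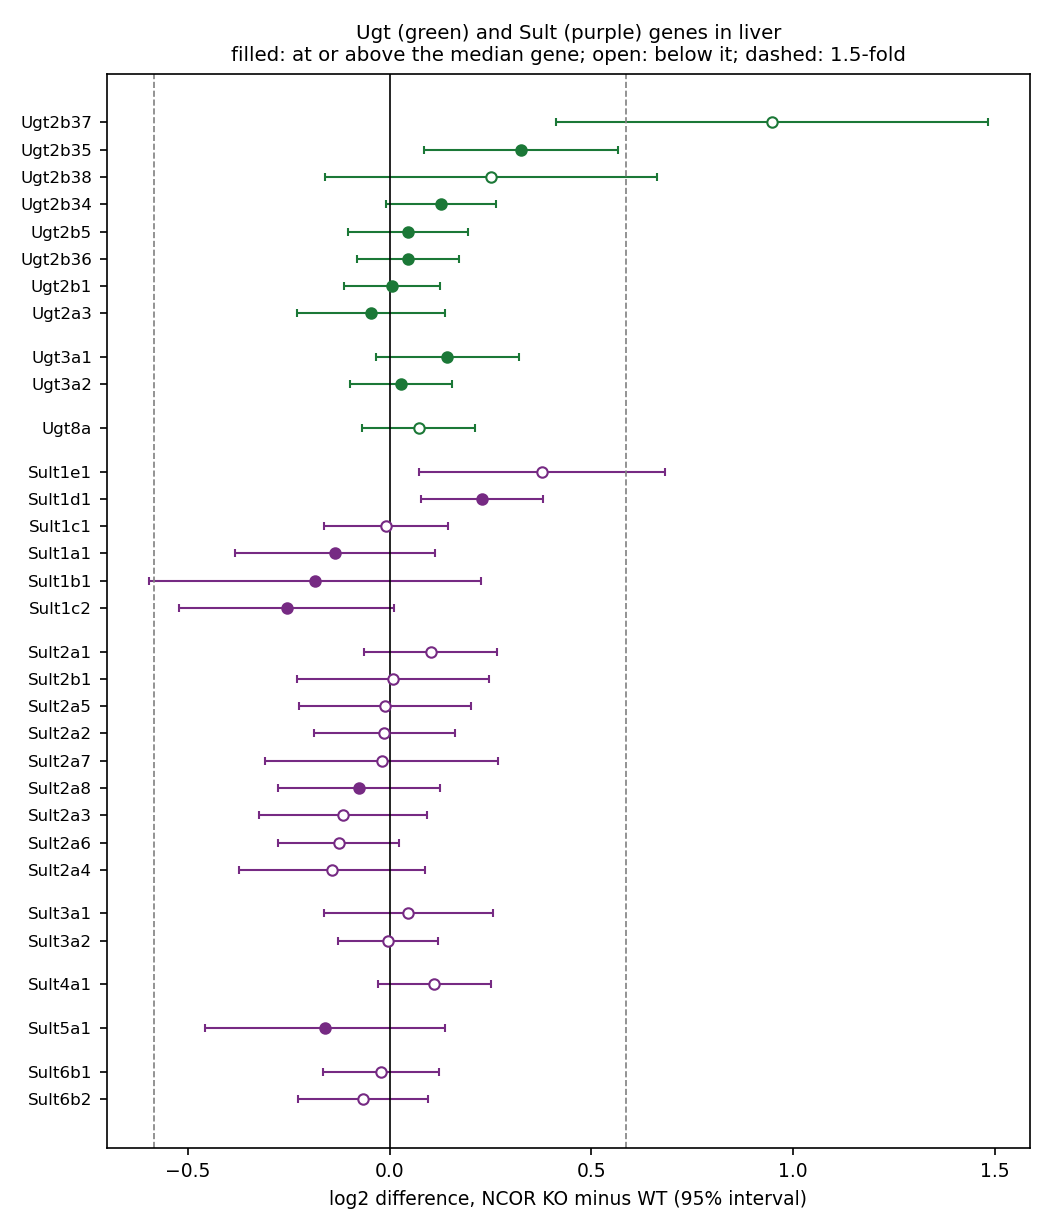
Log2 difference, NCOR KO minus WT, with its 95% interval from limma for each of the 32 genes, grouped by subfamily. Filled points are genes at or above the median gene, open points those below it, and dashed lines mark 1.5-fold. The intervals of 28 genes lie between the dashed lines, and that of Ugt2b37 lies farthest to the right, from 0.41 to 1.48.

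Among the sulfotransferases, the Sult1 group acts on phenols, catecholamines, thyroid hormones and oestrogens. Of 6 measured Sult1 genes 0 passed the test, with 2 differences above 0 and 4 below. Sult1d1, a catecholamine and eicosanoid sulfotransferase, had 11.81, 11.81, 11.83 and 11.90 in NCOR KO livers, against 11.55, 11.76, 11.63 and 11.49 in WT livers. The groups did not overlap and the NCOR KO values were close together. The difference of 0.23 ± 0.07 (SE), 1.17-fold, had a limma adjusted p of 0.135.

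Sult1e1, the oestrogen sulfotransferase, lay below the median gene. It had 5.32, 5.201, 4.96 and 5.39 in NCOR KO livers, against 4.67, 5.26, 4.74 and 4.69 in WT livers. WT replicate 2 sat inside the NCOR KO range while the other 3 WT values lay below it. The difference was 0.38 ± 0.14 (SE), 1.30-fold, with a limma adjusted p of 0.217. Without WT replicate 2 it was 0.52 with an adjusted p of 0.0383, and without other single arrays the adjusted p reached 0.371.

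Sult1c2 had 6.54, 6.36, 6.22 and 6.72 in NCOR KO livers, against 6.71, 6.49, 6.96 and 6.70 in WT livers. The groups overlapped, with a difference of -0.26 ± 0.12 (SE), the lowest of the 32, and a limma adjusted p of 0.332. Sult1a1, the main phenol sulfotransferase, averaged 11.28 ± 0.15 in NCOR KO and 11.41 ± 0.22 in WT livers (SD, n = 4). Sult1b1, which sulfates thyroid hormones and phenols, was the most variable of the brighter Sult genes within groups, at 8.54 ± 0.36 in NCOR KO and 8.72 ± 0.30 in WT livers (SD, n = 4). Sult1b1, Sult1d1 and Sult1e1 are neighbours at the end of the Ugt2 row, and their differences had mixed signs, at -0.19, 0.23 and 0.38.

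**Figure D3:**
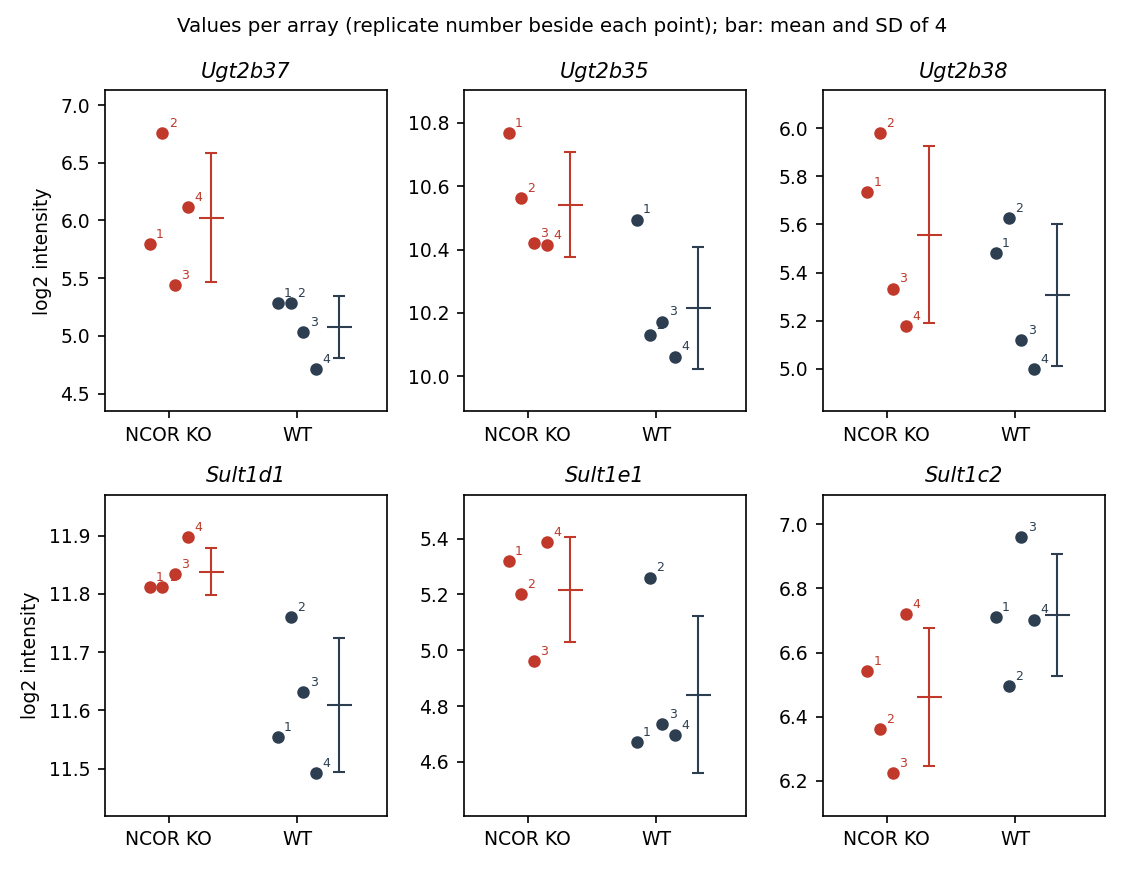
Log2 intensity in each array for the 3 Ugt and the 3 Sult genes with the largest absolute differences, NCOR KO left and WT right, with the replicate number beside each point and the mean and SD of 4 arrays as a bar. The groups are separated for Ugt2b37 and Sult1d1 and overlap for Ugt2b35, Ugt2b38, Sult1e1 and Sult1c2, and each panel has its own vertical scale.

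The Sult2 enzymes sulfate hydroxysteroids, cholesterol and bile acids, and in mouse liver most Sult2a and Sult3a genes are known for higher expression in females. Of 9 measured Sult2 genes 0 passed, and 8 were below the median gene. The exception was Sult2a8, a bile acid sulfotransferase of mouse liver, at 11.55 ± 0.19 in NCOR KO and 11.62 ± 0.07 in WT livers (SD, n = 4), a difference of -0.08 with a 95% interval from 0.825-fold to 1.09-fold. Sult2a4 had 4.35, 4.15, 4.08 and 3.98 in NCOR KO livers, against 4.26, 4.08, 4.27 and 4.52 in WT livers. Its difference of -0.14 was the largest of the Sult2 group, with overlapping groups and a limma adjusted p of 0.539.

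Sult2a1 to Sult2a7 and the amine sulfotransferase genes Sult3a1 and Sult3a2, 9 genes in all, had mean levels from 3.15 to 4.21, and their differences ran from -0.14 to 0.10. At such dim levels background signal compresses folds, so their narrow intervals limit the signal on the array and not the transcript. Sult3a1 had 3.16, 3.16, 3.02 and 3.50 in NCOR KO livers, against 3.20, 3.21, 3.17 and 3.09 in WT livers. Its difference was 0.05 (limma adjusted p = 0.852), and without NCOR KO replicate 4 it was -0.05. Sult2b1, which sulfates cholesterol and pregnenolone, was at 4.81 ± 0.21 in NCOR KO and 4.80 ± 0.13 in WT livers (SD, n = 4).

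The low Sult2a and Sult3a signals were set beside sex markers. Xist, the X inactivation transcript of female cells, was dim at 4.11 ± 0.07 in NCOR KO and 4.32 ± 0.18 in WT livers, while the Y-linked Eif2s3y was bright at 9.14 ± 0.07 in NCOR KO and 9.11 ± 0.08 in WT livers (SD, n = 4). Of 10 measured genes known for female-predominant liver expression 3 rose (Cyp17a1, Cyp3a44 and Cyp2a4), 0 fell and 7 did not pass, with a median of 0.60 and 10 of 10 differences above 0. Of 12 male-predominant genes 1 rose (Elovl3), 3 fell (Selenbp2, Cyp7b1 and C8b) and 8 did not pass. Their median was -0.36, with 2 differences above 0 and 10 below. Of all genes 1.65% passed, and 52.0% had a difference above 0. Both lists were chosen with results of these data known. The 9 dim Sult2a and Sult3a genes had a median of -0.01, and their difference from those lists was not tested.

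The remaining Sult genes belong to smaller groups. Sult4a1, a brain-expressed relative, had 4.43, 4.28, 4.38 and 4.33 in NCOR KO livers, against 4.30, 4.26, 4.13 and 4.29 in WT livers, a difference of 0.11 (limma adjusted p = 0.424). Sult5a1 had 6.49, 6.81, 6.79 and 6.92 in NCOR KO livers, against 7.06, 6.62, 6.75 and 7.22 in WT livers, a difference of -0.16 (limma adjusted p = 0.601) that ran from -0.26 (without WT replicate 2) to -0.06 (without WT replicate 4) with single arrays left out. Sult6b2 had 3.69, 3.70, 3.66 and 3.69 in NCOR KO livers, against 3.68, 3.93, 3.61 and 3.79 in WT livers, a difference of -0.07 (limma adjusted p = 0.701). All 3 overlapped between groups. Sult1c1 and Sult6b1 were dim, with differences of -0.01 and -0.02.

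Over the 21 Sult genes 6 differences were above 0 and 15 below, with a median of -0.02, where the median of all genes was 0.01. With arrays centred on their medians the Sult median was -0.06 and that of all genes -0.04. The Sult median ran from -0.0605 (without NCOR KO replicate 4) to -0.0077 (without NCOR KO replicate 3) with single arrays left out. The 6 Sult genes at or above the median gene had 1 difference above 0 and 5 below, and a median of -0.15. Of all genes at or above the median gene 44.7% were above 0, with a median of -0.02. The medians of the Ugt and the Sult genes were not tested against each other or against that of all genes.

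Genes of cofactor supply, deconjugation and export, and regulators, were listed as the surroundings of the 2 families, with results of these data known. In all genes 1.65% passed, and of 31 measured genes in the 5 lists 2 rose, 1 fell and 28 did not pass. Those that passed were Papss2 and Arsa, which rose, and Slc26a1, which fell. UDP-glucuronate supply, 4 genes, had 0 that passed: Ugdh, which makes UDP-glucuronate, was at 0.09 (limma adjusted p = 0.746), and the largest difference was that of Uxs1, which turns UDP-glucuronate into UDP-xylose, at -0.14 (limma adjusted p = 0.396).

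In PAPS and sulfate supply 1 of 9 genes rose, 1 fell and 7 did not pass, where 1.65% of all genes passed. Papss2, the PAPS synthase of liver, had 11.88, 11.95, 12.11 and 12.18 in NCOR KO livers, against 11.23, 11.37, 11.49 and 11.53 in WT livers. Every NCOR KO value lay above every WT value. Papss2 rose by 0.62 ± 0.09 (SE), 1.54-fold with a 95% interval from 1.34-fold to 1.77-fold, at a limma adjusted p of 0.00883. Its relative Papss1 was at 0.19 ± 0.09 (SE) with a limma adjusted p of 0.360.

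Slc26a1, a sulfate anion transporter of the hepatocyte membrane, had 10.59, 10.56, 10.54 and 10.66 in NCOR KO livers, against 10.90, 10.93, 10.995 and 11.07 in WT livers. Every NCOR KO value lay below every WT value, and the difference was -0.39 ± 0.06 (SE), 1.31-fold lower at a limma adjusted p of 0.0144. The call ended without NCOR KO replicate 2 (adjusted p = 0.0620) and with the replicate block (adjusted p = 0.0505), at differences of -0.38 and -0.39. Over all alternatives but the test against 1.2-fold, which it did not pass, its adjusted p ran from 0.00313 to 0.0620.

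Among 4 listed genes of deconjugation 3 were measured and 1 rose, where 1.65% of all genes passed in either direction. The steroid sulfatase gene Sts was listed but not measured. Whether the measured sulfatases act on products of the Sult enzymes was not tested. Arsa, the lysosomal arylsulfatase that removes sulfate from sulfatide, had 9.05, 8.79, 8.59 and 8.65 in NCOR KO livers, against 8.16, 8.40, 8.01 and 8.09 in WT livers. The groups did not overlap. Arsa rose by 0.61 ± 0.11 (SE), 1.52-fold at a limma adjusted p of 0.0306. The call ended in 5 of the 8 fits that left out 1 array, without NCOR KO replicates 1 and 2 (adjusted p = 0.0549 and 0.0962) and WT replicates 1, 3 and 4 (adjusted p = 0.0747, 0.0768 and 0.0867). Gusb, the lysosomal glucuronidase that removes glucuronate, was at -0.07 (limma adjusted p = 0.636).

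Of 4 export pumps 0 passed. Abcc4, which carries sulfated steroids and bile acids into blood, had 8.78, 7.57, 6.93 and 6.97 in NCOR KO livers, against 6.45, 5.99, 6.48 and 6.35 in WT livers. The groups did not overlap and NCOR KO replicate 1 stood highest. The difference of 1.25 ± 0.34 (SE) had a limma adjusted p of 0.106. Abcc2 and Abcc3, which export glucuronides into bile and blood, were at 0.02 and 0.01.

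**Figure D4:**
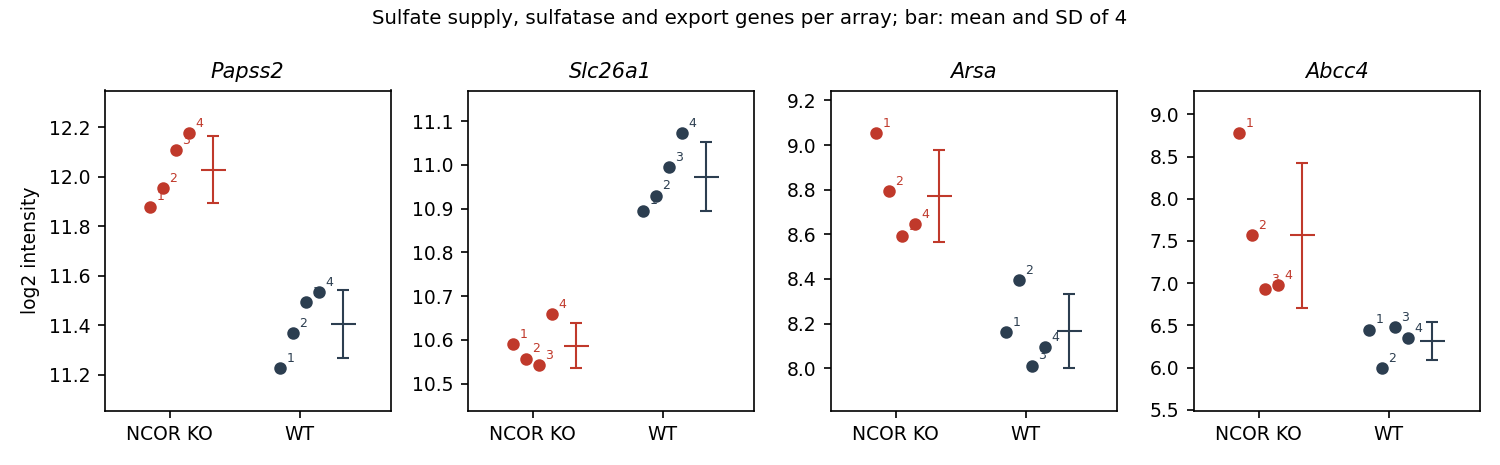
Log2 intensity in each array for Papss2, Slc26a1, Arsa and Abcc4, NCOR KO left and WT right, with the mean and SD of 4 arrays as a bar and a vertical scale of its own in each panel. In all 4 panels the groups are separated, with NCOR KO below WT for Slc26a1 and above it for Papss2, Arsa and Abcc4.

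Of 11 measured regulators 0 passed, while 4 had an unadjusted limma p under 0.05, where all genes gave 15.9%. In 2 the groups did not overlap, where all genes gave 10.4%: Nfe2l2 lay above WT and Rxra below it. Rxra was at -0.18 (limma adjusted p = 0.183) and Ahr at -0.27 (limma adjusted p = 0.221). CAR (Nr1i3), a receptor that induces conjugating enzymes, was at 10.77 ± 0.11 in NCOR KO and 11.06 ± 0.15 in WT livers (SD, n = 4), a difference of -0.29 (limma adjusted p = 0.133). PXR (Nr1i2) was at 0.12 (limma adjusted p = 0.471) and NRF2 (Nfe2l2) at 0.22 (limma adjusted p = 0.155). PPARα (Ppara) averaged 10.72 ± 0.05 in NCOR KO and 10.72 ± 0.08 in WT livers (SD, n = 4).

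Array and cell type values that touch these results are few. Median array intensity lay between 41.0 and 44.1. Of all genes 1.65% passed the test, and 52.0% had a difference above 0. Of 8 hepatocyte markers 0 passed, with a median of -0.00120, and their summed intensity ran from 63591 to 64530 in NCOR KO and from 63457 to 65109 in WT livers. Of 4 cholangiocyte markers 1 rose (Epcam) and 4 of 4 differences were above 0, with a median of 0.20. Their summed intensity was 350 to 419 in NCOR KO and 302 to 318 in WT livers, without overlap. Of 5 endothelial markers 0 passed, but 5 of 5 differences were above 0, with a median of 0.23. Of these markers 4 had an unadjusted limma p under 0.05, where all genes gave 15.9%. In 2 of them the groups did not overlap, where all genes gave 10.4%. Their summed intensity was 4737 to 5611 in NCOR KO and 4147 to 4816 in WT livers. Of 4 lymphocyte markers 2 rose (Cd3e and Cd79a), with a median of 0.26. Both were dim, as 3 of the 4 lay below the median gene. The other, Ptprc, was at 0.02 (limma adjusted p = 0.957). Summed lymphocyte markers were 261 to 304 in NCOR KO and 228 to 275 in WT livers. Kupffer and stellate markers had 0 of 5 each past the threshold, with medians of 0.03 and 0.08. Summed Kupffer markers were 1961 to 3535 in NCOR KO and 1649 to 3248 in WT livers, and summed stellate markers 3983 to 4720 in NCOR KO and 4051 to 4448 in WT livers. The part of these cell types in the values of Papss2, Slc26a1 and Arsa was not tested. In bulk liver, fewer cells of a type and less RNA per cell cannot be told apart.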

How the data were processed

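Total RNA of 8 liver samples was extracted with Trizol, biotin-labelled and hybridised to 1-colour arrays, per the labels' protocols. The table deposited by the authors holds 1 linear intensity per probe set and array (5.42 to 13268). RMA and Partek are named, without role or version, per the submitters' processing notes. The genome build is not given in the sources used here. Of 41345 probe sets 23521 had 1 gene and 1814 had several genes and were left out. After log2, the brightest probe set per gene by mean over 8 arrays was kept (22180 genes), without further normalization or a filter on dim genes. NCOR KO was compared with WT with limma 3.58.1 on R 4.3.3 (lmFit, eBayes, group only), adjusting over all genes with a threshold of 0.05. Only this fit was tested on simulated data, not the choice of probe sets. Log2 differences are NCOR KO minus WT. The number of arrays limits precision.

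The members and lists were chosen with earlier results of these data known. Named were members that passed or did not overlap between groups, the 3 largest absolute differences of Ugt and of Sult, 1 per remaining subfamily, bright members, and of each list of supply, deconjugation, export and regulator genes those that passed and the largest. Other genes (Papss1, Ugdh, Gusb, Abcc2, Abcc3, the regulators other than CAR and the sex-linked and marker genes) were named after their values were seen. Same-numbered arrays did not deviate together, so the replicate block is an alternative only. The others were quantile normalization, median centring, array weights, trend and robust variance, brighter genes only, the mean of probe sets, every probe set singly, thresholds of 0.01 and 0.1, treat against 1.2-fold, and leaving out each array.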

Additional observations from a re-analysis of the deposited data

Results flagged for a closer look

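In 38 genes, 32 members and 6 genes of the lists, both groups of 4 were searched for a value far from the other 3, and chance marks about 1 in 20 groups, so 3 in 76 is not above that share. Sult1e1 in WT replicate 2 was at 5.26, while the other WT values lay between 4.67 and 4.74. Ugt8a in NCOR KO replicate 3 was at 5.80, while the other NCOR KO values lay between 5.90 and 5.91. Uxs1 in WT replicate 1 was at 7.64, while the other WT values lay between 7.38 and 7.41.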

How the results depend on the processing

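The count of Ugt genes past the threshold was 0 in all alternatives except the threshold of 0.1, where it was 1 (Ugt2b37). That of Sult genes was 0 in all except without WT replicate 2, where it was 1 (Sult1e1), so it ran from 0 to 1 over single arrays left out. The count of supply, deconjugation, export and regulator genes, 3, was 0 with treat against 1.2-fold and 1 at a threshold of 0.01 (Papss2), and ran from 1 to 3 without single arrays; the lowest was without NCOR KO replicate 2, where Papss2 passed. Papss2 passed in 16 of 17 fits. With the replicate block the count was 2, and Slc26a1 did not pass (adjusted p = 0.0505). Correlations of deviations between same-numbered arrays, -0.09 to 0.02, gave no pairing. The count of all changed genes, 366, was 155 with the replicate block, 36 with treat, 551 with genes at or above the median level only, 88 at 0.01 and 807 at 0.1, and ran from 120 to 297 without single arrays. With arrays centred on their medians 147 rose and 383 fell, against 181 and 185. The median Sult difference was -0.15 with brighter genes only, since the 15 dim members leave. The difference of Sult3a1 ran from -0.0497 (without NCOR KO replicate 4) to 0.11 (without NCOR KO replicate 3). Leaving out single arrays also moved the uncalled differences of Ugt8a (0.04 to 0.11), Sult2a4 (-0.21 to -0.06) and Sult6b2 (-0.11 to -0.0083). Of 353 values for 19 named genes 338 kept their direction and side of the threshold. Only 3 of these genes passed in the main fit, so stricter settings could not change the side of the others. The 12 values that lost a call were all of Papss2, Slc26a1 and Arsa. For the 18 members below the median gene, signal near background limits what a difference can show.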

Other observations

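Rows annotated to several genes, Ugt genes among them, were outside the rule, and their values cannot be given to 1 gene. A row shared by 8 genes had 8.99, 8.94, 9.43 and 8.93 in NCOR KO livers, against 8.57, 8.81, 9.003 and 8.95 in WT livers. A row shared by 5 genes had 7.17, 7.15, 7.37 and 7.51 in NCOR KO livers, against 7.52, 7.71, 7.37 and 7.35 in WT livers. A row shared by 2 genes was dim, at 3.75 ± 0.15 in NCOR KO and 3.78 ± 0.08 in WT livers (SD, n = 4). The groups overlapped in each of the 3 rows.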
